A study of Mus musculus with 16 samples.

Results

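The 6 genes described here handle glutamate after its release. They are the glutamate transporters Slc1a2 and Slc1a3, glutamine synthetase (Glul), glutamate dehydrogenase (Glud1) and the cytosolic and mitochondrial aspartate transaminases (Got1 and Got2). They were chosen by symbol, and all 6 were among the 13277 genes listed for each library.

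The question behind the study was what reduced calcium signalling in astrocytes of the mouse striatum does to striatal circuits and to repetitive behaviour. All 8 mice were adults that carried both Aldh1l1-Cre/ERT2, an inducible Cre recombinase driven by the astrocyte gene Aldh1l1, and RiboTag, an allele that puts a haemagglutinin tag on ribosomes of cells with Cre activity. Of these mice, 4 received an adeno-associated virus (AAV) for a control protein (control mice Y481, Y482, Y483 and Y485). The other 4 received an AAV for hPMCA2w/b, a human plasma membrane pump that removes calcium from the cell (PMCA mice Y486, Y487, Y489 and Y490). The sources used here do not give the promoter of the viruses, their dose or the time after injection. Whole striata were homogenised, and each mouse gave 1 library from cleared lysate (input) and 1 from RNA precipitated with the tagged ribosomes (IP), so there were 4 groups of 4 libraries. IP libraries thus report ribosome-bound RNA of cells in which Aldh1l1-driven Cre had been active, and input libraries report RNA of the whole tissue.

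At glutamatergic synapses most released glutamate is cleared by astrocytes, through the sodium-coupled transporters GLT-1 (the product of Slc1a2) and GLAST (the product of Slc1a3). Inside the astrocyte, glutamine synthetase adds ammonia to glutamate, and the glutamine is exported for neurons to make glutamate again. Glutamate can also enter the tricarboxylic acid cycle as 2-oxoglutarate, either through glutamate dehydrogenase in mitochondria or through aspartate transaminases, which also serve the malate-aspartate shuttle. The striatum receives its glutamate from cortical and thalamic axons, and most of its own neurons release GABA.

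Over the listed genes, input libraries held 198462 to 419458 reads and IP libraries 347274 to 686343, so 1 read was worth 1.59 to 4.46 CPM (reads scaled to the size of the library). Values are the authors' log2 CPM, and a gene was called at a Benjamini-Hochberg adjusted p under 0.05 in a limma fit over all tested genes. The labelled astrocyte origin of the IP libraries was checked on fixed markers: each of 10 astrocyte markers was called higher in the precipitate, in both treatments. All 9 tested projection neuron markers and all 8 general neuron markers were lower, and so were 7 of 8 oligodendrocyte markers. Of 7 tested microglia markers, 7 were lower in control mice and 4 in PMCA mice, where C1qa, C1qb and C1qc were not called. Of the 2 tested endothelial markers, Slco1c1 was higher in IP in both treatments, and Flt1 was called lower in control mice and not called in PMCA mice (limma adjusted p = 0.0559). These bulk libraries cannot tell fewer cells of a type from less RNA per cell. The labels give separate mice and no batch.

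RefSeq promoter sequences are shown for 4 of the 6 genes, as examples of both directions: Slc1a3, Glul and Glud1, whose level was above that of input in IP, and Got1, whose level was below it. Each line gives the 120 bases before the start in GRCm38.p6, 5′ to 3′ on the gene's strand, with matches in capitals to the GC box (GGGCGG), the TATA box (TATAAA) and the CCAAT box (CCAAT), on either strand. The reverse of the CCAAT box can share its last bases with a GC box, and no matches shown overlap.
Slc1a3, chr15:8710808-8710927, minus strand: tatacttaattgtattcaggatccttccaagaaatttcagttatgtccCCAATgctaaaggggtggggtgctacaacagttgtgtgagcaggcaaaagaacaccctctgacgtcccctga
Glul, chr1:153899809-153899928, plus strand: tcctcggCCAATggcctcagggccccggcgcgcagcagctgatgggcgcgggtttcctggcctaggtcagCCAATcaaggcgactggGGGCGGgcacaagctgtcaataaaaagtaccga
Glud1, chr14:34310607-34310726, plus strand: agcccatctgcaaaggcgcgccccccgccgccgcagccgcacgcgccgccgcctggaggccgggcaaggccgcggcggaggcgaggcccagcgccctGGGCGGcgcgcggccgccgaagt
Got1, chr19:43524606-43524725, minus strand: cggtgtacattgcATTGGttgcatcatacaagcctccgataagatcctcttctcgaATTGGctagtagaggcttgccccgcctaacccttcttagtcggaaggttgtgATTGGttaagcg

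Over 250 bases before the start, the 4 members with higher IP levels did not share one kind of promoter by these measures. Glud1 had 82.0% G and C, 46 CpG dinucleotides and 3 GC boxes, and Glul had 64.8% G and C, 15 CpG, 1 GC box and 2 CCAAT boxes. Slc1a3 had 44.8% G and C, 2 CpG, 1 GC box, 1 TATA box and 3 CCAAT boxes. Slc1a2 also had 44.8% G and C, with 1 CpG and 0 of these motifs. The table's start for Slc1a2 lies inside its gene record (chromosome 2 from 102658239 to 102790784), so it is 1 of several possible starts and its letters are not shown. Got1 had 54.4% G and C, 11 CpG and 5 CCAAT boxes, and Got2 (chromosome 8 from 95864133 to 95888401) had 59.2%, 19 CpG and 1 TATA box. Across all 32851 RefSeq promoters in the table the median was 52.4% G and C and 6 CpG, and 32.7% held a GC box, 12.4% a TATA box and 33.8% a CCAAT box. A match is a string of letters and not a measured binding site.

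**Figure D1:**
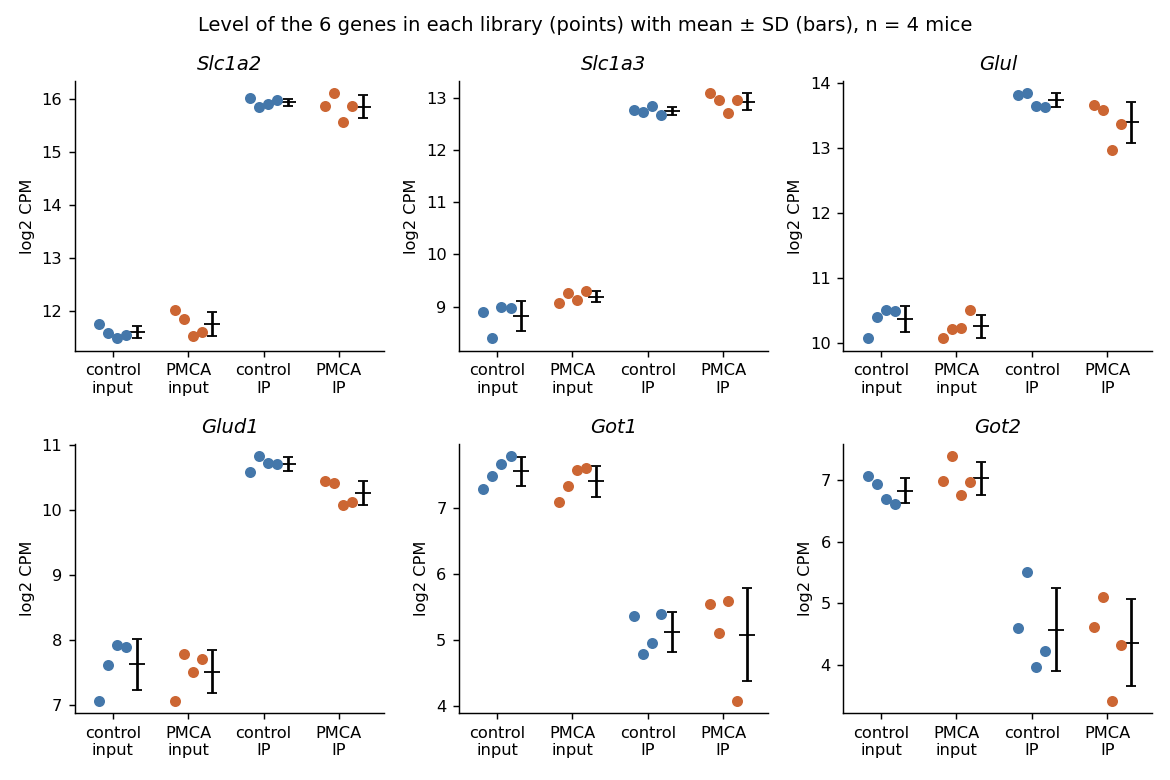
Level of each of the 6 genes (log2 CPM, vertical axis, own scale per panel) in the 16 libraries, by group; points are libraries and bars are the mean ± SD of 4 mice. Slc1a2, Slc1a3, Glul and Glud1 sit higher in IP than in input and Got1 and Got2 sit lower, with no overlap between the fractions.

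Slc1a2 (GLT-1) took most of the reads that the 6 genes had in the precipitate. In control IP it read 16.01, 15.86, 15.90 and 15.97 log2 CPM in Y481, Y482, Y483 and Y485, and in PMCA IP 15.87, 16.10, 15.57 and 15.86 in Y486, Y487, Y489 and Y490. The IP ranges of the treatments overlapped, and Y489 was the lowest. In input the values were 11.77, 11.59, 11.50 and 11.56 in the control mice and 12.02, 11.85, 11.54 and 11.62 in the PMCA mice, again with overlap. Slc1a2 took 5.49% to 6.11% of the listed reads of a control IP library and 4.64% to 6.37% of a PMCA IP library, against 0.298% to 0.394% and 0.334% to 0.447% in input, without allowance for transcript length. The lowest IP share, in Y489, rested on 19407 reads (exact Clopper-Pearson 95% interval 4.58% to 4.71%), so the spread between PMCA mice was wider than counting error. The order of its groups was control IP, PMCA IP, PMCA input and control input, in which only the step between IP and input passed the test.

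Slc1a3 (GLAST; chromosome 15 from 8634124 to 8710807) read 12.75, 12.73, 12.83 and 12.66 log2 CPM in control IP and 13.08, 12.96, 12.70 and 12.95 in PMCA IP. Y489 lay within the control range, and the other 3 PMCA mice lay above it. In input it read 8.90, 8.39, 8.99 and 8.99 in control mice and 9.07, 9.27, 9.13 and 9.30 in PMCA mice, so all 4 PMCA mice lay above all 4 control mice. Its order from high to low was PMCA IP, control IP, PMCA input and control input.

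Glul, the enzyme that makes glutamine (chromosome 1 from 153899929 to 153909723), read 13.80, 13.84, 13.65 and 13.63 log2 CPM in control IP. In PMCA IP it read 13.65, 13.58, 12.97 and 13.36, and 1 PMCA mouse (Y486) reached the control range. In input it read 10.08, 10.40, 10.51 and 10.49 in control mice and 10.07, 10.21, 10.23 and 10.51 in PMCA mice, with full overlap. Glul had 3189 to 8482 reads per IP library.

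Glud1, which deaminates glutamate to 2-oxoglutarate (chromosome 14 from 34310727 to 34345033), read 10.58, 10.84, 10.73 and 10.71 log2 CPM in control IP and 10.44, 10.42, 10.09 and 10.13 in PMCA IP. Every PMCA mouse lay below every control mouse, and Y489 and Y490 lay lowest. In input it read 7.07, 7.63, 7.93 and 7.90 in control mice and 7.07, 7.79, 7.51 and 7.72 in PMCA mice, and the ranges overlapped. Glud1 had 347 to 909 reads per IP library and 30 to 97 per input library. Its order was control IP, PMCA IP, control input and PMCA input.

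The transaminases had few reads. Got1 (chromosome 19 from 43499752 to 43524605) had 24, 12, 14 and 16 reads in the control IP libraries and 29, 16, 19 and 5 in the PMCA IP libraries, or 4.78 to 5.39 and 4.07 to 5.59 log2 CPM. Got2 had 14, 20, 7 and 7 reads in control IP and 15, 16, 4 and 6 in PMCA IP, or 3.97 to 5.50 and 3.41 to 5.10 log2 CPM. In input, Got1 ranged from 7.29 to 7.80 log2 CPM in control mice and from 7.10 to 7.62 in PMCA mice, and Got2 from 6.62 to 7.07 and from 6.76 to 7.39. Treatments overlapped in both fractions for both genes. The lowest counts, 5 Got1 reads in Y490 and 4 Got2 reads in Y489, amount to 0.00144% of reads (exact 95% interval 4.67e-04% to 0.00336%) and 9.57e-04% (2.61e-04% to 0.00245%).

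All 6 genes together took 7.50% to 8.22% of the reads of control IP libraries and 6.15% to 8.33% of PMCA IP libraries. In input the sum was 0.557% to 0.618% in control mice and 0.586% to 0.669% in PMCA mice. For the 4 abundant genes, the spread between mice in IP was wider than counting error. The SD over PMCA mice was 0.31 for Glul and 0.22 for Slc1a2 on the log2 scale, where counting alone gives 0.02 and 0.01. For Got1 and Got2 in control IP the SD of 0.30 and 0.67 stood beside a counting error of 0.36 and 0.45. In PMCA IP the SD was 0.71 for Got1 and 0.71 for Got2, above counting errors of 0.40 and 0.51.

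The precipitate was then compared with the input of the same treatment, which asks in which fraction the members' RNA is concentrated. Both transporters, Glul and Glud1 were higher in IP in both treatments, and both transaminases were lower. In control mice Slc1a2 was 20.1-fold higher (log2 fold change 4.33, SE 0.10, limma adjusted p = 6.13e-20), Slc1a3 15.2-fold (3.92, SE 0.12), Glul 10.3-fold (3.36, SE 0.13) and Glud1 8.48-fold (3.08, SE 0.17). Got1 was 5.45-fold lower (-2.45, SE 0.29, limma adjusted p = 4.80e-08) and Got2 4.77-fold lower (-2.25, SE 0.35, limma adjusted p = 4.50e-06). In PMCA mice the log2 fold changes were 4.09, 3.73, 3.13 and 2.75 for the 4 higher genes in the same order, and -2.33 and -2.66 for Got1 and Got2. So 4 of 6 members were called higher and 2 of 6 lower in each treatment. Of all 8091 genes tested, 27.3% were called higher and 26.1% lower in control mice, and 24.9% and 24.8% in PMCA mice. The members' median log2 fold change was 3.22 in control and 2.94 in PMCA mice, beside 0.06 and 0.02 over all tested genes. Scaling by total listed reads in place of the deposited scaling moved the median of all genes by -0.21 in control and -0.26 in PMCA mice. It took the share of called genes that were higher from 50.1% to 37.7% in PMCA mice, and left the 6 members' directions and calls as they were.

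**Figure D2:**
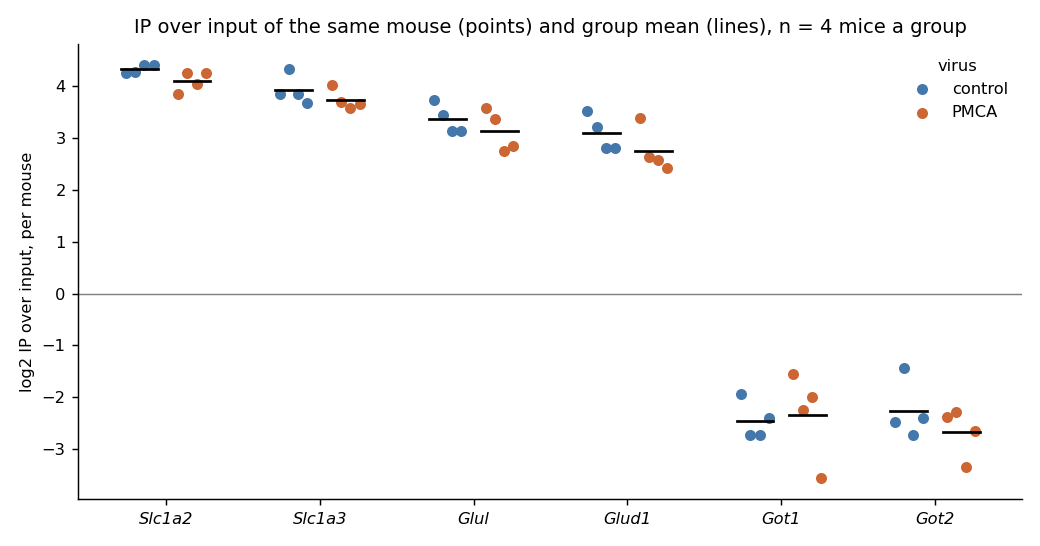
Log2 ratio of IP over input within each mouse (vertical axis) for the 6 genes, with control mice in blue and PMCA mice in orange; lines are group means of 4 mice. The transporters lie between 3.57 and 4.41, Glul and Glud1 between 2.41 and 3.73, and the transaminases between -3.56 and -1.43.

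The size of that difference was ordered among the members. Within each mouse the log2 IP over input of one member was compared with that of another over all 15 pairs, in which transcript length and library scaling cancel, by a two-sided exact sign-flip test over the 8 mice with Benjamini-Hochberg adjustment over the pairs. Of the 15 pairs, 14 passed at an adjusted p under 0.05. Pairs of a higher gene with a transaminase followed from their opposite calls above, so only the remaining pairs test an order. Slc1a2 exceeded Glul by 0.97 ± 0.41 (SD) in 8 of 8 mice, Slc1a3 exceeded Glul by 0.58 ± 0.27 in 8 of 8, and Glul exceeded Glud1 by 0.33 ± 0.19 in 8 of 8 (exact p = 0.0078 for each, the smallest that 8 mice allow, adjusted p = 0.00901). Slc1a2 exceeded Slc1a3 by 0.39 ± 0.33 in 6 of 8 mice (exact p = 0.0312, adjusted p = 0.0335). That pair no longer passed when any of Y481, Y483, Y485, Y487, Y489 or Y490 was left out (exact adjusted p = 0.067 each). It passed without Y482 or Y486, the mice in which Slc1a3 exceeded Slc1a2 (exact adjusted p = 0.0335 each). Got1 and Got2 did not differ beyond the spread between mice (0.07 ± 0.87, higher in 4 of 8 mice, exact p = 0.812). Each of the 4 higher genes exceeded each transaminase by 5.31 to 6.67 on the log2 scale in 8 of 8 mice.

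**Figure D3:**
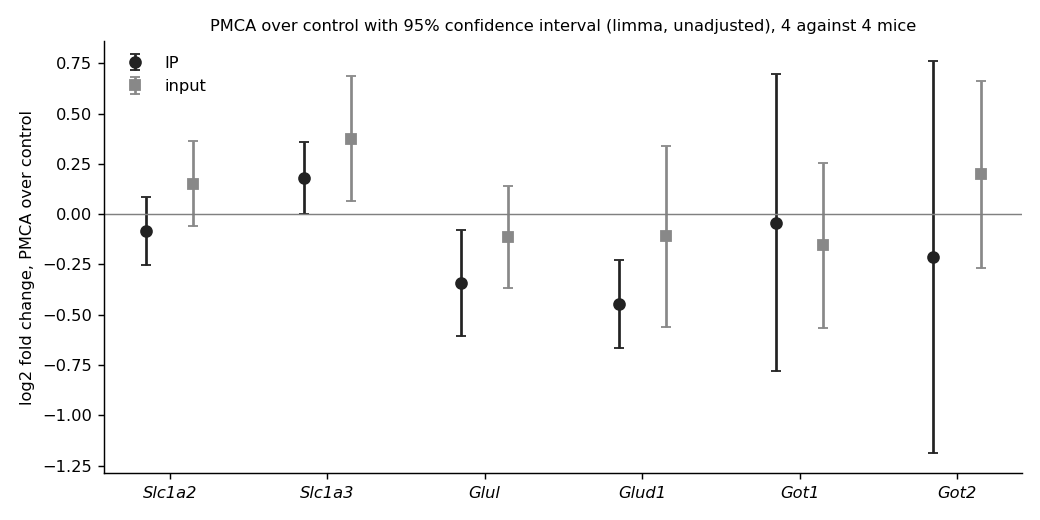
Log2 fold change of PMCA over control mice (vertical axis) for the 6 genes in IP (black circles) and input (grey squares), with the 95% confidence interval of the limma fit, 4 against 4 mice. In IP the interval of Glud1 runs from -0.66 to -0.23, and the intervals of Got1 and Got2 span more than a doubling between their ends.

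The treatment was compared within the precipitate, which asks whether lowering astrocyte calcium signals altered the ribosome-bound RNA of these genes. Glud1 fell and the other 5 members were not called. Its mean went from 10.71 ± 0.10 log2 CPM in control IP to 10.27 ± 0.19 in PMCA IP (SD, n = 4 each), a log2 fold change of -0.44 (SE 0.11, 95% interval -0.66 to -0.23, limma adjusted p = 0.0454), or 1.36-fold lower. Every PMCA mouse lay below every control mouse (two-sided exact permutation p = 0.0286, the smallest that 4 against 4 mice allow). The share of all genes tested in IP whose ranges did not overlap was not counted, so how unusual this is remains unknown. Of 18 such tests on single members 2 reached that value, here and for Slc1a3 in input, and 0 passed Benjamini-Hochberg adjustment over the 18 (exact adjusted p = 0.257). For any to pass, 11 of the 18 would have to reach the smallest p, so this adjustment could hardly be passed by 1 gene. Of 7094 genes tested, 0.507% were called, so 1 of 6 members was called beside 36 genes in all. The call lay close to the threshold, and 9 of 16 alternatives lost it. It was lost without Y482 (limma adjusted p = 0.234), Y483 (0.143), Y485 (0.0889), Y489 (0.104) or Y490 (0.234), with a filter at 30 reads (0.0563), with voom weights (0.0503), and without trend and robust moderation (0.402). With the mouse as a random replicate block in a model of all 16 libraries, the Glud1 adjusted p was 0.530 and the number of genes called in IP was 11. The Glud1 log2 fold change stayed between -0.50 and -0.38 in all 16 alternatives.

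Glul had 13.73 ± 0.11 log2 CPM in control IP and 13.39 ± 0.31 in PMCA IP, a difference of -0.34 (95% interval -0.60 to -0.08) that did not pass adjustment (limma unadjusted p = 0.0149, adjusted p = 0.284). Slc1a3 had 12.74 ± 0.07 and 12.92 ± 0.16, a difference of 0.18 (95% interval 0.00 to 0.36, limma unadjusted p = 0.0484, adjusted p = 0.383). Slc1a2 had 15.94 ± 0.07 and 15.85 ± 0.22, a difference of -0.08 (95% interval -0.25 to 0.09). The differences were -0.04 for Got1 (95% interval -0.78 to 0.70) and -0.21 for Got2 (-1.19 to 0.76), and these intervals are too wide at 4 to 29 reads per library to tell whether the transaminases moved. In all, 3 of the 6 members had an unadjusted p under 0.05 in IP. Such values were common in IP: Slc1a3, with the largest of the 3, ranked 895 by p among 7094 genes tested. The members' median difference was -0.15, beside -0.01 over all genes tested.

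Other cell markers moved with the treatment in IP. The summed level of 8 microglia markers was 98.3 to 177 CPM in control IP and 190 to 552 CPM in PMCA IP, without overlap, and 2 of the 5 tested markers were called higher (C1qa and C1qc). Of the defining microglia markers, Tmem119 had no read in 3 control IP libraries and 1 PMCA IP library. Within the PMCA mice the microglia sum was 329 CPM in Y486, 190 in Y487, 552 in Y489 and 503 in Y490, and Glud1 was lowest in Y489 and Y490. In Y489, 5 of the 6 members had their lowest PMCA IP level, Got1 being the exception. The 10 astrocyte markers summed to 17240 to 20806 CPM in control IP and 19865 to 23312 in PMCA IP, with 0 of 10 called and 4 at an unadjusted p under 0.05. These 4 did not run one way: Gfap was at 1.14 and Aldh1l1 at 0.43, with all PMCA mice above all control mice, and Aldoc was at -0.23 and Slc4a4 at -0.24 (log2 differences, limma adjusted p from 0.130 to 0.330). Slc4a4, with the largest p of the 4, ranked 589 by p among the 7094 genes tested in IP. Of the 10 markers, 6 had a negative difference. General neuron markers summed to 330 to 551 CPM and 321 to 447 CPM, with 1 of 7 tested called lower, projection neuron markers to 954 to 1101 and 1021 to 1241, and oligodendrocyte markers to 646 to 826 and 646 to 822. The 4 oligodendrocyte precursor markers summed to 11.8 to 20.7 CPM in control IP and 20.7 to 35.8 in PMCA IP, and none had enough reads to be tested. The part of these markers in the Glud1 result was not tested.

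In input, 0 of 6 members were called, beside 2 of 5895 genes tested (0.0339%). Slc1a3 had the only unadjusted p under 0.05 among the members. Its mean was 8.82 ± 0.29 log2 CPM with the control virus and 9.19 ± 0.11 with PMCA (SD over 4 mice), a difference of 0.38 (95% interval 0.07 to 0.69, limma unadjusted p = 0.0192, adjusted p = 0.9996). The ranges did not overlap (two-sided exact permutation p = 0.0286, the smallest possible), and the share of all genes tested in input without overlap was not counted. The control mouse Y482 had 80 reads and lay apart at 8.39, and without it the difference was 0.24 (limma unadjusted p = 0.124). Markers also differed in input. Of 9 tested astrocyte markers, 0 were called and 3 had an unadjusted p under 0.05: Gfap at 1.27 (limma adjusted p = 0.133), Aldh1l1 at 1.11 and Aqp4 at 0.59. The astrocyte markers did not all run one way: 6 of the 9 had a positive difference, and Gja1 (-0.07), S100b (-0.17) and Slc4a4 (-0.03) a negative one. All 7 tested microglia markers had a positive difference, with C1qa at 1.17, and 0 were called. The microglia markers summed to 433 to 767 CPM in control input and 594 to 1297 in PMCA input, and the astrocyte markers to 1404 to 1672 and 1630 to 2063. The part of these markers in the Slc1a3 values was not tested.

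The input differences of the other members were 0.15 for Slc1a2, -0.11 for Glul, -0.11 for Glud1, -0.16 for Got1 and 0.20 for Got2. The Glud1 interval in input, -0.56 to 0.34, holds both its IP value and 0.

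Whether the treatment acted differently in IP than in input was tested as a difference of differences. No member passed, and 0 of 6 had an unadjusted p under 0.05, beside 3 of 8091 genes called (0.0371%). The difference was -0.33 for Glud1 (95% interval -0.83 to 0.17, limma adjusted p = 0.913), -0.24 for Slc1a2, -0.23 for Glul, -0.20 for Slc1a3, -0.41 for Got2 and 0.11 for Got1. The difference of Glud1 between PMCA and control mice in IP is therefore not shown to differ from that in input.

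**Figure D4:**
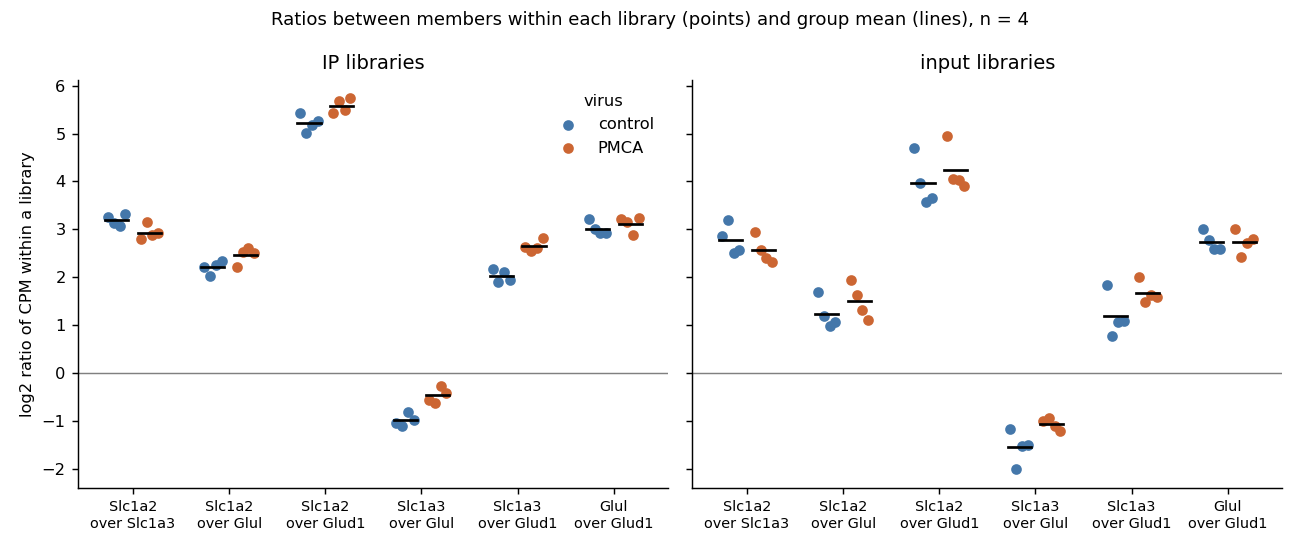
Log2 ratio of CPM between pairs of the 4 abundant members within each library (vertical axis), in IP (left) and input (right), with control mice in blue and PMCA mice in orange; lines are means of 4 libraries. In IP, Slc1a3 over Glul and Slc1a3 over Glud1 do not overlap between treatments.

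Ratios between members within a library do not depend on library scaling and were compared between treatments for all 15 pairs. In IP, Slc1a3 over Glud1 had a log2 ratio of 2.03 ± 0.13 with the control virus and 2.65 ± 0.12 with PMCA (SD over 4 mice), with ranges of 1.89 to 2.17 and 2.54 to 2.82. Slc1a3 over Glul was -0.99 ± 0.13 in control mice and -0.47 ± 0.16 in PMCA mice, with ranges of -1.11 to -0.82 and -0.62 to -0.27. The differences were 0.62 and 0.52 on the log2 scale. Each had a two-sided exact permutation p of 0.0286, the smallest possible, and 0.214 after Benjamini-Hochberg adjustment over 15 pairs, so neither passed. At 4 against 4 mice, 9 of the 15 pairs would have to reach the smallest p for any to pass. Glul over Glud1, the ratio of the enzymes to each other, was 3.02 ± 0.14 and 3.12 ± 0.16 in IP, a difference of 0.10 (exact permutation p = 0.457). In input the same Slc1a3 ratios were 1.19 ± 0.45 and 1.67 ± 0.23 over Glud1, and -1.55 ± 0.34 and -1.06 ± 0.12 over Glul, with exact permutation p = 0.114 and 0.0571. In input 0 of 15 pairs had an unadjusted p under 0.05.

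**Figure D5:**
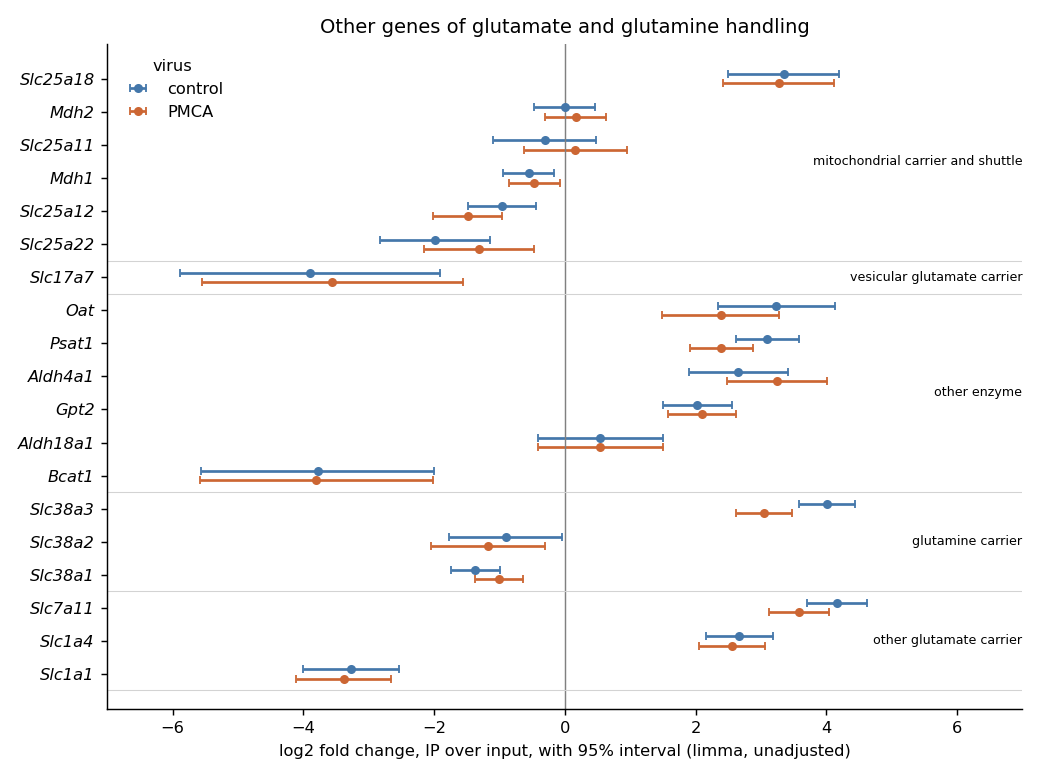
Log2 fold change of IP over input (horizontal axis, 95% interval of the limma fit) for the 19 tested genes of 5 further lists of glutamate and glutamine handling, in control mice (blue) and PMCA mice (orange). In control mice Slc7a11, Slc38a3 and Slc25a18 lie furthest to the right, and Bcat1 and Slc17a7 furthest to the left. Bcat1 and Slc17a7 rest on 12 and 4 reads over the control IP libraries.

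The other genes of glutamate and glutamine handling were taken from 5 lists of 29 genes, of which 26 were listed and 19 tested across the fractions. In control mice 8 of 19 were called higher in IP, 7 lower and 4 neither, and in PMCA mice 8, 8 and 3. Over all 8091 genes tested, 27.3% were called higher and 26.1% lower in control mice, and 24.9% and 24.8% in PMCA mice. Their median log2 fold change was -0.0049 in control and 0.17 in PMCA mice, beside 0.06 and 0.02 over all tested genes. Among plasma membrane carriers, the cystine-glutamate exchanger Slc7a11 (4.17 in control, 3.59 in PMCA mice) and the neutral amino acid carrier Slc1a4 (2.67 and 2.56) were higher in IP. The neuronal glutamate transporter Slc1a1, of the same family as GLT-1 and GLAST, was lower (-3.27 and -3.39). Among glutamine carriers, Slc38a3, through which astrocytes release glutamine, was higher (4.01 and 3.04), and Slc38a1, which takes glutamine into neurons, was lower (-1.37 and -1.01). Slc38a2 was called lower in PMCA mice only (-0.91, limma adjusted p = 0.0731, and -1.18, adjusted p = 0.0225), and its treatment difference between fractions was not called (limma adjusted p = 0.971). Its call was lost in PMCA mice without Y487, Y489 or Y490, and gained in control mice without Y481, with total scaling or with voom weights.

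Among the other enzymes, the branched-chain transaminase Bcat1 was lower in IP, as the aspartate transaminases were (-3.78 in control and -3.80 in PMCA mice). Bcat1 had only 12 reads over the control IP libraries and 13 over the PMCA IP libraries. The alanine transaminase Gpt2 (2.02 and 2.10), ornithine aminotransferase Oat (3.24 and 2.38), Aldh4a1, which makes glutamate from a proline breakdown product (2.65 and 3.25), and Psat1, a transaminase of serine synthesis (3.10 and 2.40), were higher. The vesicular glutamate transporter of cortical neurons, Slc17a7, was lower (-3.90 and -3.56). It had only 4 reads over the control IP libraries and 8 over the PMCA IP libraries, so the size of its difference is uncertain. In control mice it ran from -4.80 to -2.18 over the 11 alternatives that tested Slc17a7. Among mitochondrial genes, the glutamate carrier Slc25a18 was higher (3.35 and 3.27) and its paralog Slc25a22 lower (-1.99 and -1.31). The aspartate-glutamate carrier Slc25a12 (-0.96 and -1.49) and the cytosolic malate dehydrogenase Mdh1 (-0.56 and -0.47), both of the malate-aspartate shuttle, were lower. The Mdh1 call was lost in control mice without Y482 or Y485, and in PMCA mice without Y482, Y483, Y487, Y489 or Y490 or with no filter on low values. It was lost in both without trend and robust moderation. Slc25a22 was not called in PMCA mice without Y490 (limma adjusted p = 0.0678).

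Between treatments, 0 of 16 tested genes of these lists were called in IP and 0 of 15 in input, with 2 and 1 at an unadjusted p under 0.05. The 2 in IP, named after their values were seen, were Psat1 at -0.49 (SE 0.13, limma adjusted p = 0.0951) and Oat at -0.32 (SE 0.13, adjusted p = 0.300). Psat1 was called without Y485 (limma adjusted p = 0.0487) or without Y487 (0.0372). Slc38a3 was at 0.18 in IP (limma adjusted p = 0.625). In input Slc38a3 had 31 reads over the control mice and 78 over the PMCA mice, a difference of 1.15 (SE 0.37, limma unadjusted p = 0.00488, adjusted p = 0.9996), and the PMCA mice all lay above the control mice. With the mouse as a random replicate block it was called (limma adjusted p = 0.00943), and in the other 10 alternatives that tested it, it was not. Its difference of treatment effects between fractions was -0.97 (limma adjusted p = 0.774), 1 of 2 among 19 genes with an unadjusted p under 0.05 there.

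By the Pearson correlation of log2 CPM over the 16 libraries, among 4282 genes, the genes most like Slc1a2 were S1pr1, Lrrc58 and Luzp2 (r = 0.995 to 0.996). Those most like Slc1a3 were Clu, Cspg5 and S1pr1 (0.994 to 0.996), those most like Glul were Mfge8, Aldoc and Ndrg2 (0.994 to 0.997), and those most like Glud1 were Mfge8, Cldn10 and Mmd2 (0.991 to 0.992). Got1 was most like Cdk17, Rmrp and Uchl1 (0.977 to 0.988), and Got2 most like Elavl3, Scn3b and Lzts3 (0.962 to 0.969). All of these share the contrast between IP and input, so the values are a description. Over the 8 IP libraries alone, the nearest were Nfx1 for Slc1a2 (r = 0.964), Stmn4 for Slc1a3 (0.945), Atrn for Glul (0.981), Ptplad1 for Glud1 (0.982), Ric3 for Got1 (0.962) and Fbxo2 for Got2 (0.931), and no gene stood among the 3 nearest of more than 1 member. Each is the highest of 4282 values over only 8 libraries, so high r is likely from the selection itself, and these too are a description.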

How the data were processed

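Per the labels, RNA was purified with a Qiagen kit, and stranded libraries were made after removal of ribosomal RNA and run on an Illumina HiSeq4000. The submitters' processing notes name mm10, STAR, HTSeq, edgeR and limma, without versions. No source used here gives the strand setting of the counting. Deposited values were log2 CPM, computed by the authors for each library with no pooling. Each value was a whole number of reads within 0.01 reads (100% of values) with a mean prior count of 0.25 reads. These reads were used for shares, filters and alternatives. edgeR was not run here, because the deposited unit is log2.

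limma 3.58.1 in R 4.3.3 (statmod 1.5.0, jsonlite 2.0.0) was fitted to the deposited log2 values with trend and robust moderation. A gene was tested at the equivalent of 10 reads in at least 4 libraries and 15 reads in all. Treatments were compared in 8 libraries of a fraction, and fractions in 1 model of 16. All single-gene adjusted p-values are from limma with Benjamini-Hochberg adjustment over all tested genes. Overlap of ranges between groups was examined for the members, lists and markers only, with no count over all tested genes. The scripts were checked on simulated data. Exact tests used Python 3.11.15, numpy 2.4.6, scipy 1.17.1 and pandas 2.3.3. The exact Clopper-Pearson intervals of read shares cover counting error only, since reads carry no molecular identifiers. Intervals of log2 fold changes and of differences between groups are from the limma fit, and include the spread between mice.

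The members and lists were chosen with earlier results of these data known. All 6 members were named, with Slc38a3, the called genes of the lists and the 3 genes of highest correlation. Of the lists as first drawn up, 1 gene is not reported here. Input and IP libraries were paired by the mouse named in the labels. Deviations from group means correlated between the IP and input of a mouse with r from -0.04 to 0.15 over 4288 genes. The IP of Y490 correlated better with the input of another PMCA mouse (0.10) than with its own (-0.04). For Y482 its own input and the best other control input both gave 0.029. In the remaining mice the own input gave the highest r. Alternatives covered filter, prior count, scaling, spread model, replicate block and leaving out each mouse. Promoters and gene positions are from RefSeq (GRCm38.p6), in which all 6 members matched. Levels were not compared between genes, since transcript lengths were not used here.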

Additional observations from a re-analysis of the deposited data

Results flagged for a closer look

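Over the members' levels, IP over input and ratios, 96 groups of 4 were examined for a mouse far from the other 3 (a gap beyond Dixon's critical value, which chance gives in about 1 of 20 groups), and 2 had one. Slc1a3 in control input was lowest in Y482 at 8.39 log2 CPM, against 8.90 to 8.99 in the other control mice, and it rested on 80 reads. The log2 ratio of Slc1a2 over Glud1 in PMCA input was highest in Y486 at 4.96, against 3.90 to 4.06 in the other PMCA mice. Glud1 had 37 reads in the input of Y486.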

How the results depend on the processing

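All 6 members kept their calls and directions between IP and input in all 17 alternatives of each treatment, the mouse as a fixed replicate block included, and that block changed no member's call between IP and input or in the difference between fractions. For PMCA against control in IP, the number of members called went from 1 (Glud1) to 0 with the 30-read filter, with voom weights, without trend and robust moderation and with the random replicate block, and was 0 to 1 with a mouse left out. The number of genes called in IP was 0 without trend and robust moderation, 11 with the random replicate block and 14 to 50 with a mouse left out, against 36. In input it was 0 to 10 with a mouse left out and 6 with the random block, against 2. Signs turned only in values that were not called. In IP, Got1 was 0.079 with voom and -0.21 to 0.29 with a mouse left out. With a mouse left out, Slc1a2 was -0.17 to 0.0099 in IP and Got2 was -0.41 to 0.10, both turning without Y489. With a mouse left out, Glud1 in input was -0.30 to 0.040, turning without Y486, and Got1 in the difference between fractions was -0.15 to 0.52. The causes were not tested. Got1 and Got2 had 4 to 29 reads per IP library, with counting errors of 0.36 to 0.51 on the log2 scale. Glud1 in input had 30 to 97 reads, and its SDs of 0.40 and 0.33 exceeded a counting error of 0.19.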
